A study of Homo sapiens with 32 samples.

Results

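This report follows 10 transcription factor genes of the mammary epithelium in a triple-negative breast cancer cell line treated with salinomycin, dasatinib or both: GATA3, FOXA1, SPDEF, ELF3, ELF5, SOX9, SOX4, FOXC1, TFAP2A and TFAP2C. They were chosen by name, with no threshold on a measured value but with earlier results of these data known, from the 48804 genes listed, and all 10 passed the filter on low counts in every fit. For this description they were set in 3 groups by their known roles: 5 luminal factors (GATA3, FOXA1, SPDEF, ELF3 and ELF5), 3 basal or progenitor factors (SOX9, SOX4 and FOXC1) and the 2 AP-2 factors (TFAP2A and TFAP2C). MDA-MB-468 cells, an established line from a triple-negative breast tumor, were seeded in T25 flasks and received PBS (control), 0.5 µM Sal (salinomycin, an ionophore antibiotic), 15 µM Das (dasatinib, a Src kinase inhibitor) or both drugs at those doses (S + D, labelled with the summed dose of 15.5 µM) for 24 h or 72 h. The drugs were dissolved in DMSO, and the labels name no solvent in the control. Each of the 8 conditions had 4 libraries, stated to be biological replicates, and every library came from this 1 line, so the spread below is between cultures of 1 line.

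Luminal cells line the ducts and alveoli of the breast, and basal cells surround them. GATA3 and FOXA1 are known to hold the luminal state, FOXA1 as a pioneer factor that opens chromatin for the estrogen receptor, while FOXC1 is known as a marker of basal-like tumors and SOX9 and SOX4 as factors of progenitor and undifferentiated cells. AP-2 factors bind the control regions of many epithelial genes, and TFAP2C is known to act at the estrogen receptor gene. RNA was measured here, not protein or binding.

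The promoters of 4 factors are shown because their genes ended at different levels of change: SPDEF and FOXA1 fell most among the luminal factors, SOX4 fell most after Sal, and ELF3 did not pass the test at 72 h. Each run is the RefSeq sequence (GRCh38.p14) from 250 bases before to 50 bases after the annotated start, 5′ to 3′ on the gene's strand, and capitals mark CCAAT on either strand (ATTGG on the printed strand where reversed) and TATAAA.
SPDEF, chr6:34556280-34556579, minus strand: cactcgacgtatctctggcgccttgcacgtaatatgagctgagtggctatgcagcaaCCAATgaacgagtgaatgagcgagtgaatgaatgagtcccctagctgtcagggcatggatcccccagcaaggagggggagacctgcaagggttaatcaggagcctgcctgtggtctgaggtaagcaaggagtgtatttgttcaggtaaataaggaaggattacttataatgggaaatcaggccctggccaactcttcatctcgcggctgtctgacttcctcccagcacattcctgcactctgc
FOXA1, chr14:37595200-37595499, minus strand: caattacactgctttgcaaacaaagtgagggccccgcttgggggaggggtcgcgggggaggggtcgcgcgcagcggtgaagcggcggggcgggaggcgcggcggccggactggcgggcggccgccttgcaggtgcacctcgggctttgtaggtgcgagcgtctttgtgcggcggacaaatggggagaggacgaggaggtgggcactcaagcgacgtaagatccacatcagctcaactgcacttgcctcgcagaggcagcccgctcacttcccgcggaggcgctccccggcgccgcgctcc
SOX4, chr6:21593501-21593800, plus strand: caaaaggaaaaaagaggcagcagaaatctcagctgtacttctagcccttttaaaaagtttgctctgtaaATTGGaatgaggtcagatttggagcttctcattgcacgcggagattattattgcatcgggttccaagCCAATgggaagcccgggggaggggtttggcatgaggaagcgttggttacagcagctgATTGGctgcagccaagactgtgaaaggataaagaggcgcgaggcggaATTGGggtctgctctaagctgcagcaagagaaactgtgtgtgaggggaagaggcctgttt
ELF3, chr1:202010337-202010636, plus strand: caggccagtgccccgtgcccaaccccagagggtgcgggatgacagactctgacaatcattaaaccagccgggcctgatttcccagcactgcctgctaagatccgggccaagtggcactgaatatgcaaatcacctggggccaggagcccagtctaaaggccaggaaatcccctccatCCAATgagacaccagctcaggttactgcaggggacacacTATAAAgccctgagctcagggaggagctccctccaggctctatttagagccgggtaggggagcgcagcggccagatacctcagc
The SOX4 window held 4 CCAAT matches, a number that 0.99% of the 35116 promoters in the table reached or passed, and its GC content was 49.3% against a median of 58.7%. FOXA1 had no CCAAT or TATAAA but 2 matches to GGGCGG and a GC content of 69.3%. Of the 10 genes, 8 had an entry, with 14 entries in all, and SOX9 and TFAP2C had none. GATA3 had more of these entries than any other member, so the counts below are of entries and not of genes. Across these 14 entries and both strands, CCAAT was found in 7 (34.6% of all promoters), GGGCGG in 6 (45.0% of all), TATAAA in 3 (11.5% of all), the AP-2 motif GCCNNNGGC in 4 (23.2% of all) and the ETS core CCGGAA in 3 (17.2% of all). The GATA motif AGATAA was in none (10.3% of all), the forkhead motif TGTTTAC in 1, of ELF5 (3.4% of all), and ACAATG, a SOX motif, in 1, of GATA3 (10.8% of all). The AP-2 and ETS matches came from GATA3 and FOXC1 alone, and those to GGGCGG from these and FOXA1. A match is a run of letters and not a bound site.

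The libraries held 25692561 to 42769687 counts, with a median of 33301486.5. In each condition 3 libraries carry a number and 1 carries none, and the unnumbered libraries stood apart from the numbered ones in the same way: their deviations from the condition means correlated with each other at 0.588 to 0.666 at 24 h and 0.522 to 0.611 at 72 h (across genes, which are not replicates). The unnumbered library was below the mean of the numbered ones in 8 of 8 conditions for GATA3, FOXA1, SOX9, FOXC1, TFAP2A and TFAP2C, and above it in 8 of 8 for ELF3. What sets it apart was not tested, so members whose call changes in the numbered libraries alone are pointed out. For some of them only the change from the numbered libraries is given. In each list of 4 values below, the first 3 are the libraries numbered 1 to 3 and the last is the unnumbered library. Levels are CPM, counts scaled to the library total after its TMM adjustment. Changes are log2 fold changes ± SE from edgeR's quasi-likelihood test, and a gene is called when its Benjamini-Hochberg adjusted p over all genes tested is under 0.01.

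The line's identity was checked on markers. PGR had 0 to 3 counts in any library, ESR1 had group means of 5.42 to 9.98 CPM, and ERBB2 had 64.8 to 177.6 CPM. EGFR, a receptor high in basal-like tumors, had 3594 to 5638 CPM, while the basal factor TP63 stayed between 0.0845 and 0.700 CPM and SOX10 had at most 1 count. For other cell types, PTPRC of leukocytes had at most 5 counts and DCN of fibroblasts at most 2. The 8 leukocyte markers summed to 2.54 to 27.8 CPM per condition, mostly CD14, with 27.8 in the 72 h control, 9.46 under Sal, 3.58 under Das and 4.76 in S + D cells. The 8 fibroblast markers summed to 27.7 to 88.7 CPM, mostly COL1A1, with 31.3 in the 72 h control, 68.0 under Sal, 49.0 under Das and 88.7 in S + D cells. Both sums moved with the treatments, and their part in the results was not tested. As the samples are bulk RNA, fewer cells of a kind and less RNA per cell cannot be told apart.

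In control cells at 72 h, factors of both lineages were present together. Per kilobase of exon, SPDEF stood highest at 133 ± 21.1 CPM per kb (mean ± SD, n = 4), above every library of the other 9. SOX4 at 67.0 ± 6.66 and SOX9 at 66.7 ± 13.1 CPM per kb followed, with overlapping ranges. TFAP2C (47.4 ± 3.38) and ELF3 (42.6 ± 7.92) also overlapped, as did ELF3 and FOXC1 (35.4 ± 1.72). FOXC1 was above every FOXA1 library (30.7 ± 3.34), and FOXA1, TFAP2A (26.8 ± 5.91) and GATA3 (25.8 ± 4.64) overlapped one another. ELF5, a factor of alveolar luminal progenitors, was far below the rest at 0.413 ± 0.0756 CPM per kb. At 24 h the order was alike except that SOX9 (57.1 ± 9.28) stood above SOX4 (44.4 ± 2.48), and ELF5 was at 0.150 ± 0.0246. These lengths join all annotated exons, so genes with long alternative exons, such as ELF3 and TFAP2A, are set lower than a single transcript would be.

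**Figure D1:**
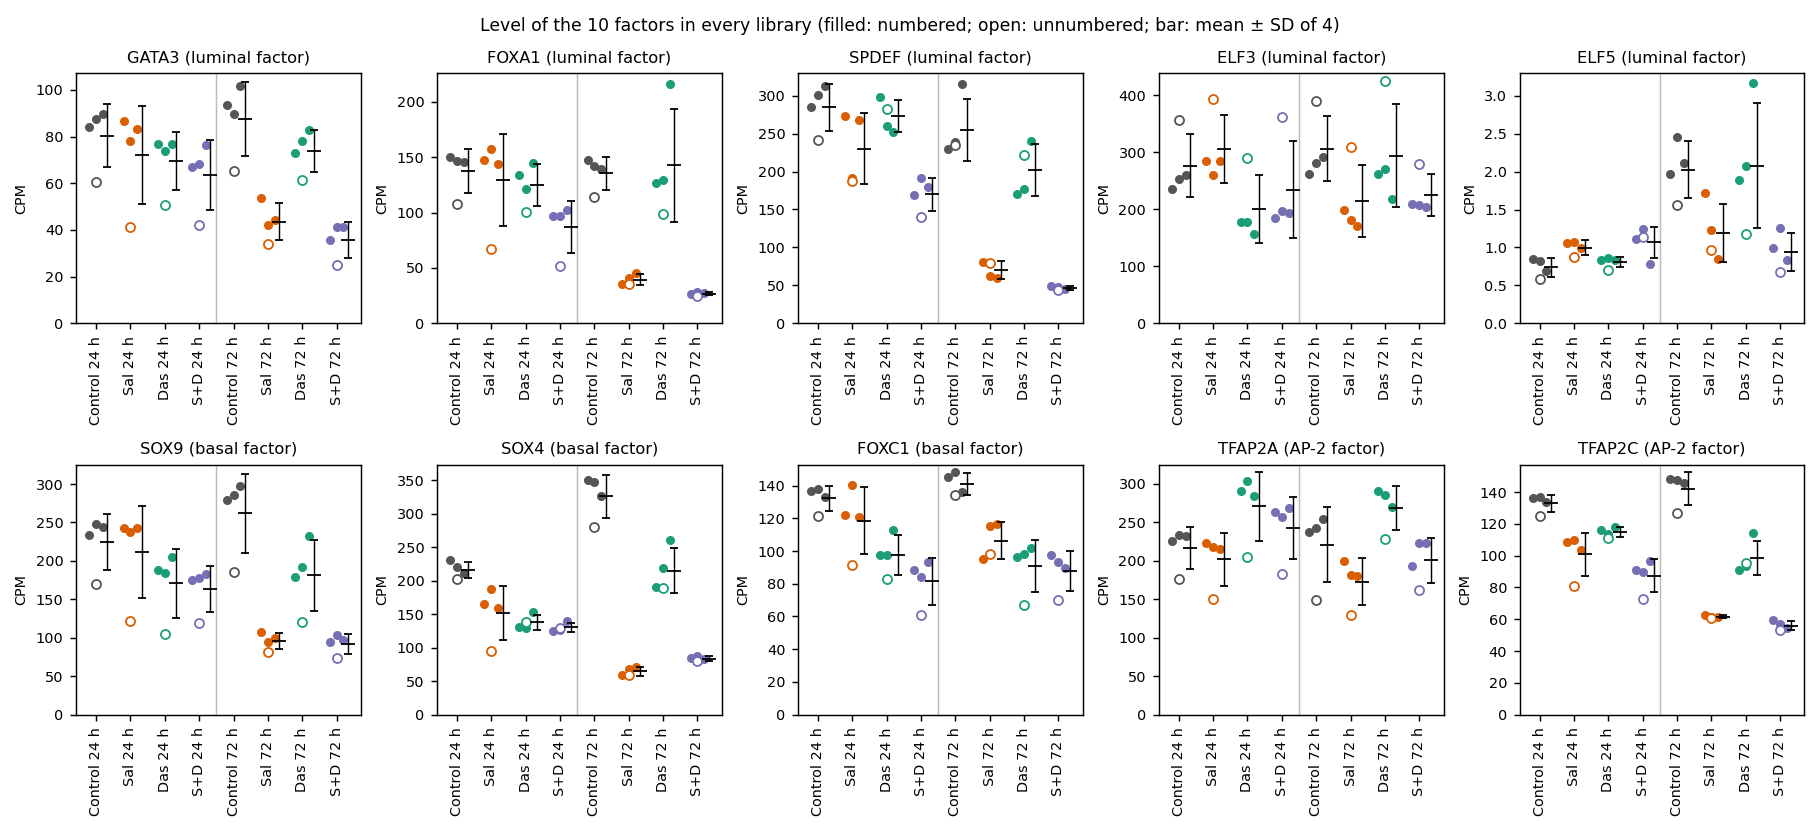
Level in CPM (linear axis from 0) of each factor in all 32 libraries, by treatment and time. Filled points are numbered libraries, open points unnumbered ones, and the bar is the mean ± SD of 4. At 72 h the Sal and S + D libraries of FOXA1, SPDEF, SOX9, SOX4 and TFAP2C lie below every control library, and the open points of ELF3 lie above the filled ones in every condition.

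At 72 h most of the 10 factors were lower after Sal and after S + D, and fewer after Das. With Sal, 6 were called lower and none higher: GATA3, FOXA1, SPDEF, SOX9, SOX4 and TFAP2C. Of all 16682 genes tested, 26.8% were called lower and 53.2% in either direction. The share of members called at all was close to that of all genes, and all of their calls were falls. With S + D, 8 were called lower, the same 6 plus ELF5 and FOXC1, against 27.9% of all genes called lower and 54.9% in either direction. With Das, 3 were called lower (SOX4, FOXC1 and TFAP2C), against 9.36% lower and 19.9% in either direction. The median log2 change of the 10 was -1.12 under Sal, -0.30 under Das and -1.33 under S + D, and the median over all genes lay between 0.0042 and 0.0224. All treatments at a time point were compared with the same 4 control libraries. Members whose 4 treated libraries all lay below all 4 controls numbered 7 for Sal, 3 for Das and 8 for S + D, against 29.6%, 14.7% and 30.9% of all genes. The members' log2 changes of more than 1.5 in size were those of FOXA1, SPDEF and SOX4 with Sal, and of these and SOX9 with S + D, against 18.7% and 20.2% of all genes past both limits. With a batch term for the unnumbered libraries all 10 were called lower with Sal, against 62.1% of all genes in either direction, and from the numbered libraries alone 9, all but ELF5, against 57.3%.

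**Figure D2:**
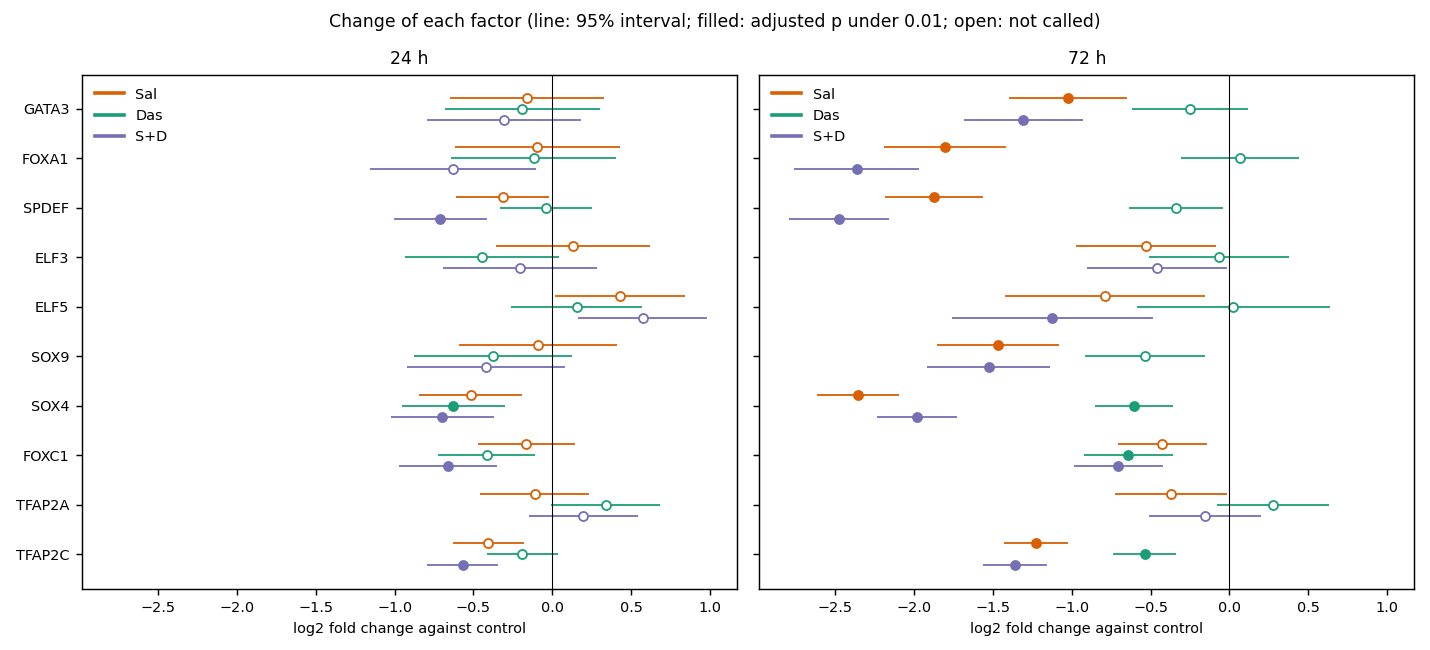
Log2 fold change against control for each factor and treatment at 24 h (left) and 72 h (right); lines are 95% confidence intervals, filled points have an adjusted p under 0.01 and open points do not. At 72 h the Sal and S + D points of FOXA1, SPDEF, SOX9 and SOX4 lie at -1.47 or lower, whereas the lowest Das point is at -0.64.

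GATA3 (ENSG00000107485, chr10:8087341-8117161, plus strand, GRCh37 here and for the genes below), which maintains luminal differentiation, was at 93.6, 89.5, 102 and 65.0 CPM in the 72 h control libraries. With Sal the values were 53.7, 42.1, 44.3 and 34.1 CPM, and with S + D 35.5, 41.2, 41.3 and 25.1 CPM. All Sal and S + D libraries lay below every control library. The changes were -1.02 ± 0.18 (adjusted p = 7.37e-05) and -1.31 ± 0.18 (adjusted p = 5.74e-06), that is 2.03-fold and 2.47-fold lower. With Das the libraries held 73.1, 78.1, 82.7 and 61.3 CPM, which overlapped the control, and the change was -0.25 ± 0.17 (adjusted p = 0.281), with a 95% interval of -0.62 to 0.12.

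FOXA1 (ENSG00000129514, chr14:38058757-38065264, minus strand), the pioneer factor, was at 147, 142, 139 and 114 CPM in the 72 h controls and fell to 35.8, 40.7, 45.6 and 35.3 CPM with Sal. The S + D libraries were the lowest, at 26.3, 28.1, 27.3 and 24.8 CPM, below every Sal library. The difference between S + D and Sal was not called by edgeR, and the share of all genes so separated is not given. The change from control was -1.80 ± 0.18 (adjusted p = 3.08e-07) with Sal and -2.36 ± 0.19 (adjusted p = 2.18e-08) with S + D, 3.49-fold and 5.15-fold lower. With Das the values were 126, 129.5, 216 and 98.8 CPM, spread to both sides of the control, since library 3 was far above the others, and the change was 0.07 ± 0.18 (adjusted p = 0.798), interval -0.31 to 0.44.

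SPDEF (ENSG00000124664, chr6:34505579-34524110, minus strand), an ETS factor of luminal and secretory cells and the most abundant of the 10 per kilobase, showed the largest falls of the luminal factors together with FOXA1. Its levels were 229.5, 239, 315 and 235 CPM in the controls, 80.8, 61.9, 59.1 and 79.5 CPM with Sal and 48.8, 47.5, 45.6 and 43.5 CPM with S + D. No library of these treatments came near a control library, and every S + D library was below every Sal library. The difference between S + D and Sal was not called by edgeR, and the share of all genes so separated is not given. The log2 changes from control were -1.88 ± 0.15 (adjusted p = 2.77e-08) with Sal and -2.48 ± 0.15 (adjusted p = 1.37e-09) with S + D, 3.67-fold and 5.57-fold lower. Das libraries held 170.0, 178, 239.9 and 222 CPM and overlapped the control, with a change of -0.34 ± 0.14 (adjusted p = 0.0737).

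ELF3 (ENSG00000163435, chr1:201977073-201986311, plus strand), an ETS factor of epithelial barriers, did not pass the test in any treatment at 72 h. It was at 262, 281, 292 and 389.6 CPM in the controls, 199, 182, 170.2 and 308 CPM under Sal, 261, 271, 219 and 424 CPM under Das and 209, 207, 205 and 280.1 CPM in S + D cells. The unnumbered library was the highest in each of these conditions, and within the numbered libraries every Sal and S + D value was below every control value. Over all 4 libraries the changes were -0.53 ± 0.21 (adjusted p = 0.0364), -0.07 ± 0.21 (adjusted p = 0.835) and -0.46 ± 0.21 (adjusted p = 0.0633). From the numbered libraries alone the change was -0.62 with Sal (adjusted p = 1.36e-04) and -0.45 with S + D (adjusted p = 0.00162). Of its exon bases, 18.5% are shared with other annotated genes, among them the antisense ELF3-AS1, which had 204 to 719 counts. Whether the counting used strand is not given in the sources used here, so reads of the 2 cannot be told apart.

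ELF5 (ENSG00000135374, chr11:34500338-34546740, minus strand), which directs the alveolar secretory lineage, was a low gene with 22 to 102 counts per library. It was at 1.98, 2.46, 2.11 and 1.56 CPM in the 72 h controls and 0.993, 1.26, 0.835 and 0.674 CPM with S + D, all of the latter below the former, a change of -1.12 ± 0.30 (adjusted p = 0.00354). The call rested on single libraries: it was lost in 3 of 8 fits that left out 1 library, with -0.97 (adjusted p = 0.0174) without control library 2, -0.95 (0.0178) without the unnumbered S + D library and -1.07 (0.0120) without S + D library 3. With Sal, at 1.72, 1.23, 0.850 and 0.966 CPM, 1 library lay within the control range, and the change was -0.79 ± 0.30 (adjusted p = 0.0289). With Das, the range of 1.18 to 3.17 CPM enclosed the controls. The control mean was 0.737 CPM at 24 h and 2.03 CPM at 72 h, and the S + D mean 1.07 and 0.940 CPM.

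SOX4 (ENSG00000124766, chr6:21593982-21598850, plus strand), a factor of progenitor and mesenchymal states, showed the largest fall of the 10 with Sal. Control libraries at 72 h held 350.4, 348, 327 and 280.4 CPM, and Sal libraries 58.5, 68.1, 71.8 and 59.6 CPM. With S + D the values were 83.8, 87.8, 83.4 and 79.5 CPM, each above every Sal library, and with Das 191, 219, 261 and 189 CPM. All treated libraries were below all controls, with Sal lowest, S + D next and Das highest. The log2 changes were -2.36 ± 0.12 (adjusted p = 5.01e-10), -1.98 ± 0.12 (adjusted p = 1.44e-09) and -0.61 ± 0.12 (adjusted p = 8.62e-04), 5.12-fold, 3.95-fold and 1.52-fold lower. The difference between S + D and Sal was not called by edgeR.

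SOX9 (ENSG00000125398, chr17:70117161-70122557, plus strand), a factor of luminal progenitors and stem-like cells, was at 279.6, 286, 297 and 186 CPM in the 72 h controls. It fell to 107, 94.2, 100.1 and 82.0 CPM with Sal and 94.8, 103, 96.9 and 73.4 CPM with S + D. These 2 treatments overlapped each other and stayed below all controls, with changes of -1.47 ± 0.18 (adjusted p = 2.52e-06) and -1.53 ± 0.18 (adjusted p = 1.51e-06). With Das the libraries held 179, 193, 233 and 121 CPM, and only the unnumbered control fell in their range. The Das change was -0.54 ± 0.18 (adjusted p = 0.0293) and reached -0.52 (adjusted p = 0.00265) from the numbered libraries alone, where all Das values were below all controls.

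FOXC1 (ENSG00000054598, chr6:1610150-1614132, plus strand), the marker of basal-like tumors, changed least among the basal factors with Sal. Its levels at 72 h were 145, 148, 136 and 134 CPM in the controls, 95.1, 115, 117 and 97.9 CPM under Sal, 96.1, 98.0, 102 and 66.9 CPM under Das and 97.5, 93.0, 89.9 and 70.0 CPM in S + D cells. No treated library reached a control library. The change with Sal was -0.43 ± 0.13 (adjusted p = 0.0101), just over the threshold and so not called. It was called from the numbered libraries alone, -0.42 (adjusted p = 0.00194), and by DESeq2 (adjusted p = 0.00699), and in none of the 8 edgeR fits that left out 1 library. Das gave -0.64 ± 0.13 (adjusted p = 0.00159) and S + D -0.70 ± 0.13 (adjusted p = 1.87e-04), 1.56-fold and 1.63-fold lower.

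Of the AP-2 factors, TFAP2C (ENSG00000087510, chr20:55204362-55214339, plus strand) fell in all 3 treatments and TFAP2A (ENSG00000137203, chr6:10393419-10419892, minus strand) in none. TFAP2C was at 149, 148, 146 and 127 CPM in the 72 h controls, 62.7, 61.4, 61.7 and 60.6 CPM under Sal, 90.9, 93.5, 114 and 95.6 CPM under Das and 59.3, 57.2, 54.4 and 53.4 CPM in S + D cells. The 4 groups were tight, and every S + D library was below every Sal library, which were below every Das library. TFAP2C was not called between S + D and Sal by edgeR, nor by DESeq2, at -0.13 (adjusted p = 0.439). Its changes were -1.23 ± 0.10 (adjusted p = 2.71e-08), -0.54 ± 0.09 (adjusted p = 4.10e-04) and -1.36 ± 0.10 (adjusted p = 6.91e-09). TFAP2A was at 237, 242, 255 and 149 CPM in the controls, 200.2, 181, 181 and 129 CPM under Sal, 291, 285, 269.8 and 228 CPM under Das and 193, 224, 223 and 162 CPM in S + D cells. The unnumbered control was well below the other controls, and all 3 treated groups overlapped the control range. Its changes were -0.37 ± 0.17 (adjusted p = 0.0630), 0.27 ± 0.17 (adjusted p = 0.219) and -0.15 ± 0.17 (adjusted p = 0.431). From the numbered libraries alone the change was -0.41 (adjusted p = 0.00205) under Sal, 0.20 (0.123) under Das and -0.22 (0.0600) in S + D cells. TFAP2A shares 16.8% of its exon bases with antisense genes, of which TFAP2A-AS1 had 40 to 117 counts and rose by 0.78 ± 0.20 with S + D (adjusted p = 0.00256), so the 2 cannot be told apart without strand.

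Adding Das to Sal, and Sal to Das, were compared directly at 72 h. S + D against Das alone called 7 members lower: GATA3 (-1.05), FOXA1 (-2.43), SPDEF (-2.14), ELF5 (-1.15), SOX9 (-0.99), SOX4 (-1.37) and TFAP2C (-0.82), against 17.7% of all genes called lower. TFAP2A was also called from the numbered libraries alone, -0.42 (adjusted p = 0.00299), where 36.6% of all genes were called. The ELF5 call held in 3 of the 8 fits that left out 1 library, the largest adjusted p being 0.0328. S + D against Sal alone called none of the 10 with edgeR, against 3.01% of all genes in either direction. At an unadjusted p under 0.05 there were 3 (2 lower, 1 higher), and DESeq2 called 1, SPDEF. For these rules the share of all genes is not given. SPDEF differed by -0.60 ± 0.14 (adjusted p = 0.0150), FOXA1 by -0.56 ± 0.18 (0.0634) and SOX4 by 0.38 ± 0.12 (0.0572), the first pair lower and SOX4 higher with S + D. The intervals of the other members, such as -0.65 to 0.09 for GATA3 and -0.44 to 0.32 for SOX9, still held falls and rises of some size.

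Whether S + D equalled the sum of the single-drug changes on the log2 scale was tested as an interaction. At 72 h it was called for SOX4 alone, 0.98 ± 0.17 (adjusted p = 0.00102), against 3.43% of all genes called with a positive interaction, and it held in every one of the 16 fits that left out 1 library. The sum of its single changes would be lower than the S + D change that was measured, -1.98. TFAP2C had 0.40 ± 0.13 (adjusted p = 0.0433) and FOXA1 -0.63 ± 0.25 (adjusted p = 0.0897). At 24 h no interaction was called among the 10 by edgeR, against 0.0306% of all genes called. DESeq2 also called none, and none had an unadjusted p under 0.05, rules for which the share of all genes is not given. From the numbered libraries alone the interaction was called for 1, FOXA1, at -0.49 (adjusted p = 7.00e-04), against 5.09% of all genes.

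At 24 h the changes were smaller. With Sal no member was called by edgeR, against 6.78% of all 16357 genes. At an unadjusted p under 0.05 there were 4 (3 lower, 1 higher), and DESeq2 called 2, SOX4 and TFAP2C. The share of all genes under these rules is not given, and the 6.78% does not apply to them. Das called 1, SOX4, against 6.88% of genes lower, and S + D called 4 lower, SPDEF, SOX4, FOXC1 and TFAP2C, against 16.5%. The median change of the 10 was -0.14 under Sal, -0.19 under Das and -0.50 under S + D, and that of all genes -0.02, 0.02 and 0.04.

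SOX4 at 24 h was at 231, 220.1, 212 and 203 CPM in the controls, 165, 187, 159.9 and 94.6 CPM under Sal, 131, 129.8, 154 and 138 CPM under Das and 124, 127, 141 and 129 CPM in S + D cells, every treated library below every control. The changes were -0.52 ± 0.15 (adjusted p = 0.0329), -0.63 ± 0.15 (adjusted p = 0.00715) and -0.70 ± 0.15 (adjusted p = 0.00156). The Das call was lost in each of the 8 fits that left out 1 library, with adjusted p of 0.0103 to 0.0245. SPDEF was at 285, 300.5, 313 and 242 CPM in the controls and 169.5, 191, 179.8 and 139.6 CPM with S + D, with no overlap, a change of -0.71 ± 0.14 (adjusted p = 5.82e-04). Its Sal libraries, at 273, 192, 268 and 188 CPM, and Das libraries, at 298, 260.5, 252 and 283 CPM, overlapped the controls. It was also lower with S + D than with Das alone, -0.67 ± 0.14 (adjusted p = 0.00376), the 1 member called in that comparison, against 4.46% of all genes lower, and this call was lost in 3 of 8 fits that left out 1 library.

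FOXC1 at 24 h held 137, 138, 133 and 121 CPM in the controls, 97.3, 97.9, 113 and 83.1 CPM with Das and 88.4, 83.8, 93.5 and 60.9 CPM with S + D. Both treated groups were below all controls, with changes of -0.42 ± 0.15 (adjusted p = 0.0484) and -0.66 ± 0.15 (adjusted p = 0.00158). TFAP2C held 136, 137, 134 and 125 CPM in the controls, 109, 109.9, 104 and 81.2 CPM under Sal, 116, 114, 118 and 111 CPM under Das and 91.1, 89.6, 96.6 and 72.8 CPM in S + D cells. It was below the controls in every treated library, and the changes were -0.41 ± 0.11 (adjusted p = 0.0171), -0.19 ± 0.11 (adjusted p = 0.220) and -0.57 ± 0.11 (adjusted p = 3.97e-04). FOXA1 was also below the controls in all S + D libraries at 96.9, 97.1, 102 and 51.5 CPM against 151, 146, 146 and 108 CPM, with -0.63 ± 0.25 (adjusted p = 0.0484). ELF5 was above all controls in every Sal library, at 0.869 to 1.07 against 0.588 to 0.847 CPM, with 0.43 ± 0.19 (adjusted p = 0.158); 11.3% of all genes had all Sal libraries above all controls. Members whose 4 treated libraries all lay below all controls numbered 2 for Sal, 3 for Das and 5 for S + D, against 11.2%, 15.7% and 24% of all genes.

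The 24 h counts depended on the unnumbered libraries. From the numbered libraries alone, 2 members were called with Sal, SOX4 (-0.36) and TFAP2C (-0.32), against 23.5% of all genes in either direction. With Das 6 were called, against 39.3%: ELF3 (-0.51), SOX9 (-0.30), SOX4 (-0.64), FOXC1 (-0.37) and TFAP2C (-0.19) lower and TFAP2A (0.38) higher. With S + D 9 were called, against 58.1%: GATA3 (-0.29), FOXA1 (-0.56), SPDEF (-0.72), ELF3 (-0.37), SOX9 (-0.43), SOX4 (-0.74), FOXC1 (-0.60) and TFAP2C (-0.54) lower and TFAP2A (0.21) higher. These shares of all genes are large too. TFAP2A at 24 h was at 226, 234, 231 and 176 CPM in the controls, 291, 303, 285 and 204 CPM with Das and 264, 257, 268 and 182 CPM with S + D, so its numbered libraries rose where those of the other AP-2 factor fell. Over all 4 libraries its changes were 0.34 ± 0.16 (adjusted p = 0.152) and 0.20 ± 0.16 (adjusted p = 0.351). In the pair of unnumbered libraries alone, its log2 ratio to the control was 0.21 with Das and 0.05 with S + D. S + D against Sal at 24 h called none of the 10 with edgeR, against 12.9% of all genes. There were 3, all lower, at an unadjusted p under 0.05, and DESeq2 called 1, FOXC1. For these rules the share of all genes is not given. From the numbered libraries alone 9 were called, against 41.4%. TFAP2A was higher (0.27), and every other member but ELF5 was lower, from -0.60 for FOXA1 to -0.22 for TFAP2C. For S + D against Das at 24 h the numbered libraries alone added FOXA1 (-0.45), FOXC1 (-0.23), TFAP2A (-0.17) and TFAP2C (-0.35), all lower, to SPDEF, against 32.9% of all genes.

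Over time, control cells themselves moved in 2 members, against 2% of all 17227 genes called higher at 72 h. ELF5 rose from 0.847, 0.823, 0.690 and 0.588 CPM at 24 h to 1.98, 2.46, 2.11 and 1.56 CPM at 72 h, 1.46 ± 0.25 (adjusted p = 5.85e-04), with no overlap. SOX4 rose from 231, 220.1, 212 and 203 to 350.4, 348, 327 and 280.4 CPM, 0.59 ± 0.13 (adjusted p = 0.00619), also without overlap, and its call was lost in 7 of the 8 fits that left out 1 library, the largest adjusted p being 0.0268.

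The Sal change differed between 72 h and 24 h, by the interaction of drug and time, for 6 members, against 21.9% of all genes. FOXA1 (-1.69), SPDEF (-1.55), SOX9 (-1.37), SOX4 (-1.83) and TFAP2C (-0.81) fell further at 72 h in all 16 fits that left out 1 library. ELF5 (-1.21) was the sixth, at an adjusted p just under the threshold, and its call was lost in 13 of those 16 fits. The S + D change differed for 5, FOXA1 (-1.68), SPDEF (-1.71), ELF5 (-1.64), SOX4 (-1.23) and TFAP2C (-0.74), against 16.3%. From the numbered libraries alone, GATA3 (-0.97), ELF3 (-0.76) and TFAP2A (-0.33) also passed for Sal, which made 9 members against 39.3% of all genes. For S + D, GATA3 (-0.97), SOX9 (-1.11) and TFAP2A (-0.39) were added, which made 8 against 31.5%. The Das change differed for none by edgeR, against 0.226%, and for none by DESeq2. There was 1 at an unadjusted p under 0.05, a rule for which the share of all genes is not given. FOXC1 had a time difference of -0.25 ± 0.20 with Sal and 0.01 ± 0.20 with S + D, and neither was called.

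Luminal and basal factors were then set side by side. With Sal at 72 h, 3 of 5 luminal and 2 of 3 basal factors were lower (median changes -1.02 and -1.47), and with S + D 4 of 5 and 3 of 3 (-1.31 and -1.53). With Das none of the 5 luminal factors was called (median -0.07), by edgeR or DESeq2, and 2 of 3 basal factors were lower (-0.61). Of all genes, 26.8% were lower with Sal, 27.9% with S + D and 9.36% with Das. In each library the mean log2 CPM of the 3 basal factors was taken from that of the 5 luminal factors. This difference was -1.79, -1.74, -1.61 and -1.57 in the 72 h controls, -1.25, -1.59, -1.73 and -1.32 under Sal, -1.30, -1.34, -1.22 and -0.97 under Das and -1.87, -1.79, -1.86 and -1.73 in S + D cells. All Das libraries lay above all controls, the Sal libraries spread across and above them, and the S + D libraries overlapped their lower end. The means ± SD were -1.68 ± 0.10, -1.47 ± 0.23, -1.21 ± 0.17 and -1.81 ± 0.06 (n = 4). Das thus shifted the difference by 0.47 from the controls, more than the SD of either group. Both list means were lower with Das, the basal one from 7.83 to 7.23 log2 CPM and the luminal one from 6.15 to 6.02. At 24 h the controls held -1.67 ± 0.03, Sal -1.41 ± 0.20, Das -1.32 ± 0.19 and S + D -1.35 ± 0.13. There all Das and all S + D libraries also lay above all controls. ELF5, at a low level, weighs as much as the others in this mean, and without it the S + D shift at 24 h was 0.11 in place of 0.32. At 72 h the sign depended on the lists for Sal, whose shift of 0.20 became -0.78 with FOXC1 as the only basal factor, and for S + D, whose shift of -0.14 became 0.0891 with the AP-2 factors added to the luminal list. The Das shift at 72 h stayed between 0.42 and 0.52 under these lists and in the numbered libraries alone. SOX9, also known from luminal progenitors, was counted in the basal list. No test was made on this score, since its members were chosen with results known.

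**Figure D3:**
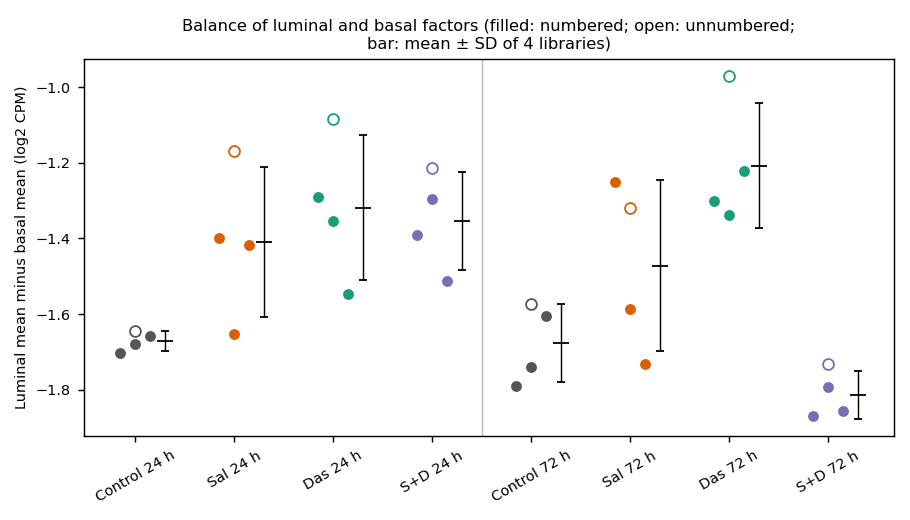
Mean log2 CPM of the 5 luminal factors minus that of the 3 basal factors in each library, by treatment and time. Filled points are numbered libraries, open points unnumbered ones, and bars the mean ± SD of 4. The 72 h Das libraries (-1.34 to -0.97) lie above the 72 h controls (-1.79 to -1.57), and the S + D libraries lie from -1.87 to -1.73.

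The members' patterns over the 32 libraries were compared by Pearson correlation of log2 CPM, as a description, since libraries of a condition share its treatment. Of the 45 pairs, GATA3 and SOX9 were the most alike at 0.958, followed by FOXA1 and SPDEF at 0.938 and SPDEF and TFAP2C at 0.932. For both GATA3 and SOX9 the unnumbered library lay low in 8 of 8 conditions, and no pair was recomputed without these libraries. ELF3 and TFAP2A were the least alike at -0.495, and in both the unnumbered libraries deviate, upward for ELF3 and downward for TFAP2A. Among 13139 genes, the most alike to each factor were ARHGAP31 for GATA3 (0.970), ELAPOR1 for FOXA1 (0.983), LYNX1 for SPDEF (0.984), ELF3-AS1 for ELF3 (0.914) and RNF128 for ELF5 (0.798). For the basal and AP-2 factors they were DSC3 for SOX9 (0.972), ATP6V1C2 for SOX4 (0.969), BICC1 for FOXC1 (0.927), MAP2K5 for TFAP2A (0.892) and CPNE2 for TFAP2C (0.978). Over the 24 numbered libraries these correlations ran from 0.841 to 0.990. ELF3-AS1 overlaps ELF3, so that likeness may hold shared reads.

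Other lineage genes were read from lists of known roles. At 72 h the shares of all genes called in either direction were 53.2% for Sal, 19.9% for Das and 54.9% for S + D, and those called lower 26.8%, 9.36% and 27.9%, beside which the counts of every list below are to be read. Of 12 other luminal factors tested at 72 h, 8 were called lower under Sal, 3 lower and 1 higher under Das, and 9 lower under S + D. MYB, a luminal factor tied to the estrogen receptor in tumors, had the largest fall, from 58.5 ± 13.7 CPM in controls to 2.03 ± 0.397 with Sal, -4.86 ± 0.40 (adjusted p = 4.64e-08), and to 1.36 ± 0.355 with S + D, -5.44 ± 0.42 (adjusted p = 1.58e-08). STAT5A, which carries prolactin signals, changed by -2.20 ± 0.16 (adjusted p = 1.25e-08) with Sal. XBP1, a factor of the secretory stress response, was the 1 that rose with Das, from 621 ± 44.4 to 1115 ± 303 CPM, 0.84 ± 0.18 (adjusted p = 0.00200).

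Of 9 other basal factors, 5 were called lower and 1 higher under Sal, 2 lower under Das, and 6 lower and 1 higher under S + D, where 53.2%, 19.9% and 54.9% of all genes were called. BCL11A, a factor of triple-negative tumors, changed by -2.16 with Sal and -2.29 with S + D, and SOX11 by -1.95 with Sal. ID4, an inhibitor of DNA binding high in basal cells, was lower in all 3 treatments, from 89.8 ± 14.3 CPM to 31.5 ± 0.837 under Sal, 34.5 ± 5.53 under Das and 24.5 ± 4.67 in S + D cells. ZEB1, the 1 that was higher, is known for mesenchymal change and changed by 2.83 with Sal and 2.76 with S + D. It was a low gene, with means under 1 CPM in the 72 h control, Sal and S + D groups. It was named after its values were seen.

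Of 11 family paralogs of the members, 6 were called lower and 1 higher under Sal, 2 and 1 under Das, and 6 and 1 under S + D, beside the same shares of all genes. SOX13 changed by -1.04 under Sal, -0.60 under Das and -1.11 in S + D cells. The higher one was GATA5, at a low level, from 0.510 ± 0.141 to 2.86 ± 0.275 CPM with S + D. Of 11 cofactors and DNA-binding partners, 7 were called lower and 1 higher under Sal, 3 and 1 under Das, and 8 and 1 under S + D. TLE3, a corepressor that binds forkhead factors, changed by -1.58 ± 0.15 (adjusted p = 1.66e-07) with Sal and -2.15 ± 0.15 (adjusted p = 8.21e-09) with S + D, and CITED4, a coactivator of AP-2 factors, by -1.87 ± 0.15 (adjusted p = 4.28e-08) and -1.42 ± 0.15 (adjusted p = 4.23e-07). The median change with Sal, Das and S + D was -0.93, -0.34 and -1.20 for the other luminal factors, -1.05, -0.71 and -1.24 for the other basal factors, -0.48, -0.37 and -0.50 for the paralogs and -0.69, -0.34 and -0.84 for the cofactors.

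Marker genes of both lineages were called in both directions, beside 53.2% of all genes for Sal, 19.9% for Das and 54.9% for S + D. Of 17 luminal markers, 11 were called lower and 2 higher under Sal, 4 and 2 under Das, and 11 and 2 under S + D. KRT19, a luminal keratin, fell from 2850.0 ± 272 CPM to 1423 ± 410.1 with Das and 584 ± 65.3 with S + D, and AGR2, a secretory protein of luminal cells, changed by -1.89 ± 0.26 (adjusted p = 6.57e-06) with Sal and -3.43 ± 0.28 (adjusted p = 2.81e-08) with S + D. MUC1 and SLC39A6 were the luminal markers that rose with Sal (0.68 and 0.57), and MLPH rose with Das (0.74) and S + D (0.40). TFF1, an estrogen-responsive secreted peptide, had 0 counts in the 72 h control libraries and 17 to 143 with Das (adjusted p = 6.22e-05), and 7 to 11 counts with S + D. Of 20 basal markers, 10 were called lower and 2 higher under Sal, 9 and 1 under Das, and 11 and 3 under S + D. KRT14, a basal keratin, fell from 17.8 ± 4.99 CPM to 0.405 ± 0.213 under Sal, 1.58 ± 0.276 under Das and 0.317 ± 0.132 in S + D cells. The basal markers that rose were CNN1 with Sal (3.26) and S + D (1.51), VIM, an intermediate filament protein of mesenchymal cells, with Sal (0.68) and S + D (1.52), KRT17 with S + D (1.87) and MYLK with Das (0.77). Except TFF1, the markers that rose were named after their values were seen. Keratins resemble one another in sequence, so reads may be split between them. The median change of the luminal markers was -0.97 under Sal, -0.09 under Das and -0.83 under S + D, and that of the basal markers -0.73, -0.71 and -0.79.

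**Figure D4:**
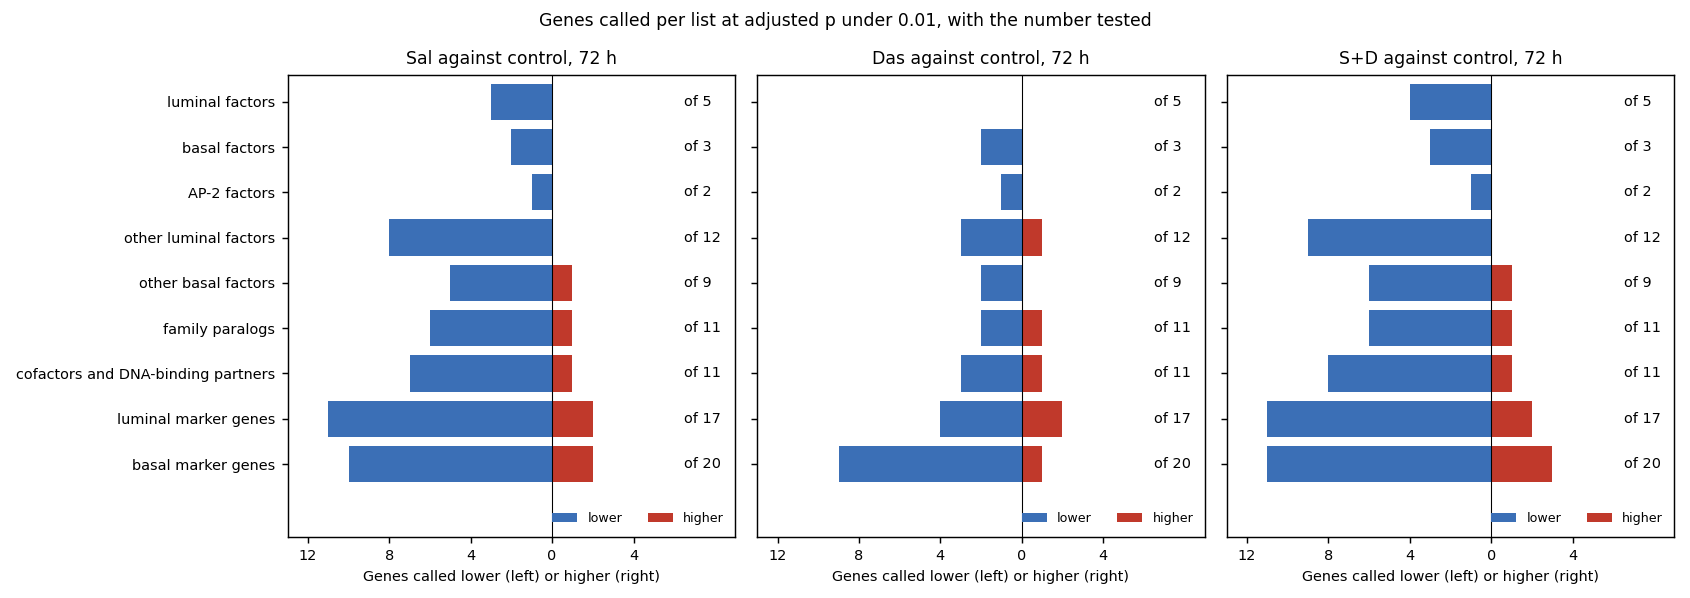
Number of genes called lower (blue, left) and higher (red, right) in each list at 72 h for Sal, Das and S + D against control, with the number tested beside each bar. With Das, 4 of 17 luminal markers were lower and 2 higher, and 9 of 20 basal markers were lower and 1 higher.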

How the data were processed

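The authors sequenced single-end TruSeq libraries of MDA-MB-468 RNA, and per the labels the processing used bcl2fastq 2.19, STAR 2.5.2 against GRCh37, Cufflinks 2.1.1 and DESeq2. The deposited table holds raw read counts per Ensembl gene for 48804 genes in 32 libraries; the counting program, its annotation and its use of strand are not given in the sources used here. Groups were taken from the sample labels, and 46537 identifiers matched the annotation used for symbols and coordinates. The depth of 25692561 to 42769687 counts sets the counting error, which is larger for ELF5 than for the other members.

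Counts were analysed in R 4.3.3 with edgeR 4.0.16 (TMM, filterByExpr with a minimum count of 10, quasi-likelihood test, Benjamini-Hochberg adjustment over all genes tested, threshold 0.01). Each time point was a fit of its own 16 libraries (16357 genes at 24 h, 16682 at 72 h), and comparisons over time used all 32 (17227 genes). The planned permutation test for members under the filter was not needed. CPM used TMM-scaled totals, and log2 CPM a prior count of 2. The scripts were tested on simulated data. Alternatives were DESeq2 1.42.0, RLE scaling, no filter, other cutoffs (an adjusted p of 0.05, or a log2 change past 1.5 as well), 2 groups only, all 32 libraries, a replicate block, the numbered libraries alone, a batch term for the unnumbered ones and leaving out each library.

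All 10 members were named. From the other lists, at most the 3 genes with the largest called change and 1 CPM in either group were named per comparison, plus the identity markers ESR1, PGR, ERBB2, TP63 and EGFR, and the gene most alike to each member. The members and lists, and their split into luminal and basal, were chosen with earlier results of these data known. PTPRC, DCN, SOX10, ZEB1, the other rising markers and overlapping genes were named outside this rule. A further marker is not reported here.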

Additional observations from a re-analysis of the deposited data

Results flagged for a closer look

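Of 80 groups of 4 libraries (10 members in 8 conditions), 17 held a library set apart from the other 3 by Dixon's test at 95%. The test flags about 1 in 20 groups by chance when groups are independent. These groups are not, since the members were read in the same 32 libraries, and the share of all genes flagged is not given. In 16 of the 17 the library set apart was the unnumbered library, and what sets these libraries apart was not tested. It was the lowest for GATA3 with Das at 24 h (50.7 CPM, next 73.8), for FOXA1 at 24 h in the control (107.8, next 145.7), with Sal (67.5, next 144.2) and with S + D (51.5, next 96.9), and for SOX9 with Sal at 24 h (122.2, next 238.1), with S + D at 24 h (118.6, next 174.5) and in the 72 h control (185.8, next 279.6). It was also the lowest for TFAP2A at 24 h in the control (176.4, next 225.9), with Sal (150.5, next 215.4) and with S + D (182.1, next 257), and in the 72 h control (148.7, next 237). For FOXC1 with Das at 72 h it was at 66.95 CPM (next 96.1) and for TFAP2C in the 72 h control at 127.2 (next 145.9). It was the highest for ELF3 with Das at 24 h (289.2 CPM, next 178.2) and with S + D at 24 h (362.2, next 197.4) and 72 h (280.1, next 208.6). The remaining one was SPDEF in control library 3 at 72 h, at 315.2 CPM with the next at 239.4.

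The drug change differed between 72 h and 24 h by edgeR's interaction test in 11 cases, and each difference was negative. For ELF5 this was not a further fall, as its DESeq2 changes at 24 h were upward, 0.43 with Sal and 0.55 with S + D. With Sal the log2 difference was -0.81 for TFAP2C, -1.55 for SPDEF, -1.83 for SOX4, -1.37 for SOX9, -1.69 for FOXA1 and -1.21 for ELF5. With S + D it was -0.74 for TFAP2C, -1.71 for SPDEF, -1.23 for SOX4, -1.68 for FOXA1 and -1.64 for ELF5.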

How the results depend on the processing

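No value of a member changed direction on losing or gaining a call, and of the 3140 member values compared under the alternatives 2925 kept their call status. These values include the other cutoffs, where only the threshold moved and nothing was recomputed. They also include the fits that left out 1 library, which share most libraries with the main fit. For most alternatives below the share of all genes called is not given, so their counts do not set the members apart from other genes. With the batch term that share was 62.1% for Sal at 72 h, against 53.2% in the main fit. The counts of members called that moved by over 1.5 times were as follows. DESeq2 called 2 with Sal at 24 h, 1 for S + D against Sal and 2 for S + D against Das at 24 h, and 1 for S + D against Sal at 72 h. At an adjusted p under 0.05 they were 2 with Sal and 2 with Das at 24 h, 1 for S + D against Sal and 2 for S + D against Das at 24 h, 1 for S + D against Sal at 72 h and 2 for the 72 h interaction. With a log2 change past 1.5 as well they fell to 0 with Das, S + D and S + D against Das at 24 h, and at 72 h to 3 with Sal, 0 with Das, 4 with S + D, 2 for S + D against Das and 0 for the interaction, with 0 over time in controls and 3 each for the Sal and S + D time differences. Over all 32 libraries they were 1 with Sal, 1 for S + D against Sal and 2 for S + D against Das at 24 h, and 1 for S + D against Sal at 72 h. Without the filter 1 was called over time in controls. RLE scaling and fits of 2 groups moved no count by over 1.5 times.

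The numbered libraries alone gave 2 with Sal, 6 with Das, 9 with S + D, 9 for S + D against Sal, 5 for S + D against Das and 1 for the interaction, all at 24 h, and 8 for the S + D time difference. A batch term for the unnumbered libraries gave 2, 5, 8, 6 and 3 for the first 5 of these, 10 with Sal at 72 h and 1 for S + D against Sal at 72 h. Among the numbered libraries, deviations of same-numbered samples correlated at -0.0804 to 0.0993 at 24 h and -0.198 to 0.0772 at 72 h, so the numbers share only a label. With the replicate number as a block, the counts were 2 with Sal, 5 with Das, 7 with S + D, 6 for S + D against Sal and 3 for S + D against Das at 24 h, and 1 for S + D against Sal at 72 h.

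Leaving out 1 library in turn gave, at 24 h, 0 to 0 members with Sal, 0 to 0 with Das, 4 to 5 with S + D, 0 to 4 for S + D against Sal (4 without the unnumbered Sal library), 0 to 1 for S + D against Das and 0 to 0 for the interaction. At 72 h it gave 6 to 7 with Sal, 3 to 4 with Das, 7 to 8 with S + D, 0 to 0 for S + D against Sal, 6 to 7 for S + D against Das and 1 to 2 for the interaction. Over time it gave 1 to 2 in controls, 5 to 7 for Sal, 0 to 0 for Das and 5 to 7 for S + D. The luminal minus basal shift moved past the spread of libraries for S + D at 24 h without ELF5 (0.11), for Sal at 72 h with FOXC1 as the basal factor (-0.78), and for S + D at 72 h with the AP-2 factors added (0.0891), without ELF5 (-0.25) and with FOXC1 alone (-0.82); the signs for Sal and S + D at 72 h therefore depended on the list. Counts of 22 to 102 for ELF5 limit what can be said of it.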
